A study of Luffa aegyptiaca with 4 samples.

Results

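The 90 transcripts described here were abundant in control Luffa aegyptiaca and were lower, but still well detected, under heat stress. They were found among the 48619 rows of the expression table, of which 48590 carry only an ID number and 29 carry a lipoxygenase name. A row was a member if it bore no lipoxygenase name, had a mean of at least 300 FPKM over the 2 control libraries, and had a change above -4 and at most -1. FPKM counts the fragments of a transcript per kilobase of its length, relative to all mapped fragments of that library. The change is the mean log2(FPKM + 1) of the 2 heat libraries minus that of the 2 control libraries. Both the control level and the fall under heat were therefore used to choose the members, and are given below as a description.

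Luffa aegyptiaca, the sponge gourd, is a cucurbit vegetable of warm climates. The study holds 2 control libraries and 2 libraries from heat-stressed material, each labelled as a biological replicate. The labels call the source tissue, and name no organ, cultivar, age, temperature or duration of the treatment. The 4 libraries had summed FPKM between 551921 and 599611, with 22556 to 24068 rows above 0. The number of reads behind them is unknown, because low values shared no common step: at most 0.791% of low rows lay at the commonest ratio between any 2 libraries. The table pairs no member with a gene name, so the organ could not be checked against marker genes, and no function is given for any member below.

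In plant tissues a small number of transcripts usually supplies a large part of the messenger RNA, and which ones do so depends on the organ and its main activity. Under heat, plants are known to switch on genes for chaperones through heat shock transcription factors, while many transcripts that dominate in unstressed tissue decline through lower transcription and faster decay. FPKM is a relative measure: a transcript can lose FPKM because it is less abundant or because others take more of the library. In tissue samples, a smaller number of cells of a type and less RNA per cell cannot be told apart.

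The members supplied much less of the library under heat. Added up, they reached 93052 FPKM in control replicate 1, 98203 in control replicate 2, 32068 in heat replicate 1 and 25045 in heat replicate 2. This was 16.6% and 17.3% of all FPKM for the controls and 5.35% and 4.54% under heat. Averaged by group, the share was 17.0% ± 0.478 for the controls and 4.94% ± 0.573 for the heat libraries (SD, n = 2 each), a difference of -12.0 percentage points. The members' sum was 3.35-fold higher in control. Both heat libraries lay far below both controls, with a spread within each group that was small against the gap between them. The direction of this difference was fixed by how the members were chosen, and with 2 libraries per group the smallest p of an exact two-sided permutation test is 0.33.

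The rest of the library was made up as follows. The 27 rows of at least 300 FPKM in control with a change at or under -4 held 3.94% and 3.93% of control FPKM and 0.130% and 0.150% under heat. The 70 rows as abundant in control whose change was above -1 held 11.2% and 12.1% in control and 11.3% and 9.27% under heat. The remaining 48432 rows, each under 300 FPKM in control or named as a lipoxygenase, went from 68.2% and 66.7% of control FPKM to 83.2% and 86.0% under heat. Between the group means, the members' share changed by -12.0 percentage points and that of the 27 rows that fell further by -3.79 points.

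**Figure D1:**
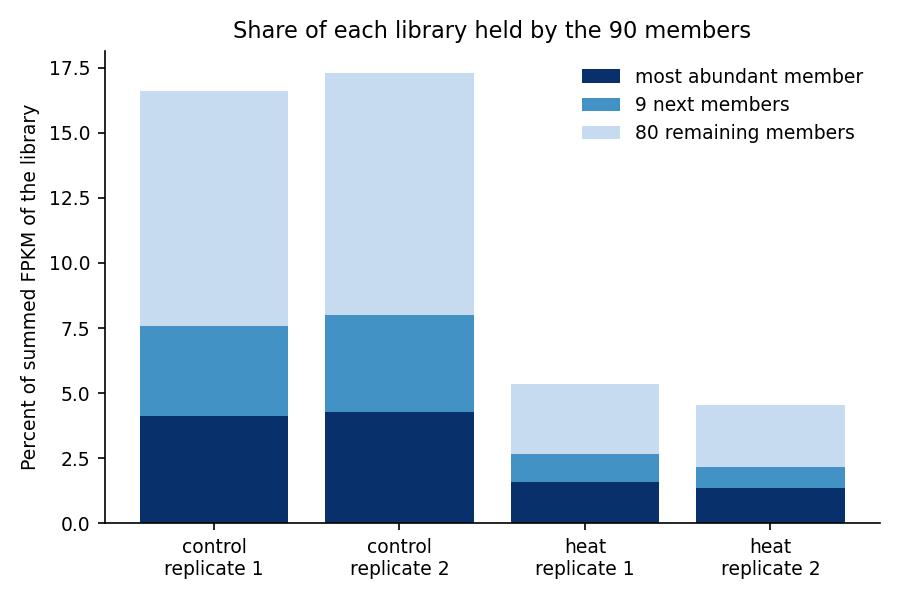
Percent of the summed FPKM of each of the 4 libraries (vertical axis) held by the 90 members, split into the most abundant member, the 9 next by control level and the 80 remaining. The stacks reach 16.6% and 17.3% in the controls and 5.35% and 4.54% under heat, and all 3 layers are thinner under heat.

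A single transcript supplied a large part of the members' sum. Luffa_aegyptiaca45264.t01 measured 23003 and 24287 FPKM in control, against 9577 and 7544 under heat. It was the first of all rows by mean FPKM in both groups, and 36.2% of its control mean was left under heat. Its share of all FPKM was 4.11% and 4.28% in the controls and 1.60% and 1.37% under heat. Within the members' own sum its part was 24.7% in both controls, and 29.9% and 30.1% in heat replicates 1 and 2. The other 89 members held 12.5% and 13.02% of control FPKM and 3.75% and 3.17% under heat, so their sum was 3.60-fold higher in control. The change of Luffa_aegyptiaca45264.t01 had the largest standard error of the 90 members. This came from a fit that draws each spread towards that of rows of like level (a mean-variance trend). Its own controls differed 1.06-fold and its heat libraries 1.27-fold, beside medians of 1.08 and 1.24 over all members. The log2 change was -1.48 (standard error 0.53), and limma gave an adjusted p of 0.0449 over all tested transcripts. Without the mean-variance trend, the adjusted p of limma was 0.000607. With the replicate block, limma gave an adjusted p of 0.183, and without 1 library at a time it lay between 0.0620 and 0.510. Over all 12 alternative fits the adjusted p of limma ran from 0.000536, on TPM values, to 1. After quantile normalization, which gives the first-ranked row the same value in every library, the change was 0.

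The next members by control level kept very different parts of it. Luffa_aegyptiaca37791.t01 gave 4035 and 3981 FPKM for the controls, and 1289 and 904 for the heat libraries, which left 27.4%. Luffa_aegyptiaca26714.t01 had control values of 2692 and 2919 FPKM and heat values of 1011 and 687 FPKM, which left 30.3%. Luffa_aegyptiaca03656.t01 measured 2287 and 2187 FPKM in control, against 241 and 250.4 under heat. It was the tenth row of the table in control and the 304th under heat, with 11.0% left. In all of these, the lowest control lay well above the highest heat library.

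Luffa_aegyptiaca33582.t01 and Luffa_aegyptiaca44530.t01 had nearly the same control level and were no longer alike under heat. The former gave 1922 and 2108 FPKM for the controls, and 610.0 and 481 for the heat libraries. The latter had control values of 1844 and 2185 FPKM and heat values of 385 and 263 FPKM. Their control ranges overlapped, whereas both heat libraries of the former were above both of the latter. FPKM is scaled by length, so these levels can be set beside each other.

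Residual levels covered a wide range. The percent of the control mean left under heat ran from 8.34% to 50.4%, with a median of 27.5%. The rule itself bounds this range at both ends. Of the 90 members, 5 kept under 10%, 22 kept 10 to 20%, 27 kept 20 to 30%, 16 kept 30 to 40% and 20 kept at least 40%. Spearman's rho between residual and control level was -0.04 across the 90 members, which are transcripts of the same libraries and not replicates. The median residual was 27.5% in the 24 members of at least 1000 FPKM in control, 26.9% in the 23 between 500 and 1000, and 27.7% in the 43 between 300 and 500. The rule bounded both quantities, and the residual is divided by the control level. The rho and these medians therefore describe the members only, and cannot show whether the residual depends on abundance.

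Most members kept at least 100 FPKM under heat, but few kept the 300 FPKM required in control. The rule also sets a lower bound on the heat level, through the limit of -4. The heat mean was at least 100 FPKM in 69 of the 90, at least 300 in 19 and at least 500 in 12, and it was under 50 FPKM in 5. No member was listed at 0 in any library. By rank among all rows, 50 members were within the first 100 in control and 7 under heat, and 20 ranked beyond 1000 under heat. The median rank moved from 90.5 to 565.5. The number of members that made up 50% of the members' sum was 13 in both controls, 8 in heat replicate 1 and 10 in heat replicate 2.

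**Figure D2:**
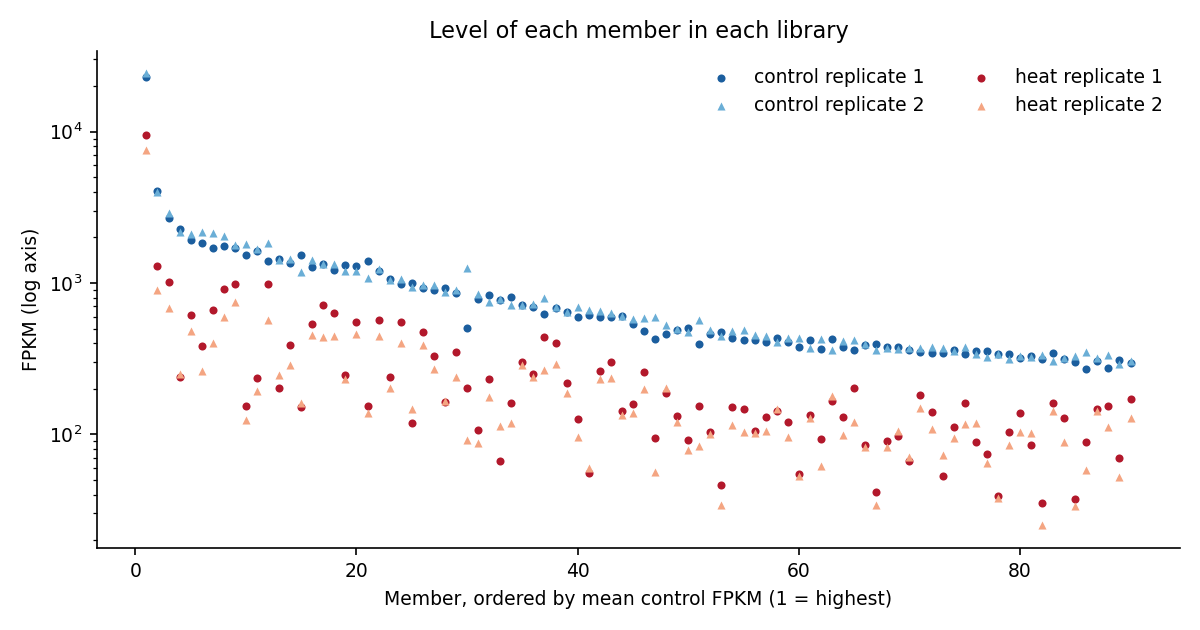
FPKM on a log axis of each of the 90 members in each library, ordered from left to right by mean control FPKM; circles are replicate 1, triangles replicate 2, blue control and red heat. Because of this order, control values form a narrow band, from 24287 down to 272 FPKM. Heat values lie below it, between 25.1 and 9577 FPKM.

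Of the members not yet named, the 4 with the most FPKM left under heat had log2 changes between -1.36 and -1.01. Luffa_aegyptiaca19922.t01 measured 1700.0 and 1770 FPKM in control, against 992 and 749 under heat. Luffa_aegyptiaca25434.t01 gave 1387 and 1826 FPKM for the controls, and 991 and 573 for the heat libraries. Luffa_aegyptiaca31295.t01 had control values of 1747 and 2056 FPKM and heat values of 914 and 597 FPKM. These 3 kept 50.2%, 48.7% and 39.7% of their control means, and in each the heat replicates were further apart on the log scale than the controls. Luffa_aegyptiaca14648.t01 measured 1341 and 1331 FPKM in control, against 719 and 442 under heat, so its controls were close together and its heat libraries were not.

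The lowest levels under heat belonged to members with control means between 314 and 377 FPKM. Luffa_aegyptiaca14414.t01 gave 315 and 334 FPKM for the controls, and 35.1 and 25.1 for the heat libraries. Luffa_aegyptiaca25615.t01 had control values of 299.9 and 327 FPKM and heat values of 37.1 and 33.6 FPKM. Luffa_aegyptiaca26870.t01 measured 394 and 360.2 FPKM in control, against 41.3 and 34.0 under heat. Together with Luffa_aegyptiaca45956.t01, given below, these are the 4 members with the lowest heat mean, and each kept between 9.28% and 11.4% of its control mean.

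The largest falls came at several control levels. Luffa_aegyptiaca38213.t01 gave 1531 and 1814 FPKM for the controls, and 155 and 124 for the heat libraries, a 12.0-fold difference of means and a log2 change of -3.58 (standard error 0.19). Luffa_aegyptiaca14891.t01 had control values of 472 and 447 FPKM and heat values of 46.5 and 33.9 FPKM, an 11.4-fold difference and a log2 change of -3.50 (standard error 0.17). Luffa_aegyptiaca03244.t01 measured 615 and 663 FPKM in control, against 55.5 and 59.9 under heat, an 11.1-fold difference and a log2 change of -3.45 (standard error 0.13). In all 3 the gap between the groups was many times the gap between replicates. The smallest falls were those of Luffa_aegyptiaca06406.t01, Luffa_aegyptiaca19922.t01 and Luffa_aegyptiaca45913.t01, with log2 changes of -1.004, -1.01 and -1.02. Luffa_aegyptiaca06406.t01 gave 680 and 692 FPKM for the controls, and 399 and 292 for the heat libraries.

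Around the limits of the rule, members and other rows were close. Luffa_aegyptiaca45913.t01 and Luffa_aegyptiaca06927.t01 were the members with the lowest control means, 301 and 302 FPKM. The latter had control values of 311 and 293 FPKM and heat values of 69.2 and 52.0 FPKM. The nearest rows under that limit with a change in the same range, Luffa_aegyptiaca13717.t01 and Luffa_aegyptiaca02293.t01, had control means of 289 and 287 FPKM. Just outside the limit of -1 lay Luffa_aegyptiaca45819.t01, the second most abundant row in control, which measured 9431 and 10719 FPKM in control and 5712 and 4596 under heat, with a change of -0.97. Luffa_aegyptiaca35970.t01, also at -0.97, had a control mean of 308 FPKM. Just past the limit of -4, at -4.002 and -4.008, lay Luffa_aegyptiaca19630.t01 and Luffa_aegyptiaca37650.t01, with control means of 638 and 635 FPKM and heat means of 39.3 and 40.1 FPKM.

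Falls were common in the whole table. Of 18186 tested transcripts, 7735 (42.5%) were lower and 5617 (30.9%) higher under heat (limma, Benjamini-Hochberg adjusted p under 0.05). After rescaling by the median of ratios, 6573 were lower and 6717 higher, and after quantile normalization 6848 and 6507. Which direction was the more common, and by how much, thus depended on the scaling. Of the 187 rows of at least 300 FPKM in control without a lipoxygenase name, 141 (75.4%) were lower by the same test on the FPKM values. These rows were taken for a high control level, which is one side of the contrast, and 90 of the 141 are the members, so this share is partly set by the choice of rows. All 90 members were among the lower transcripts, with adjusted p-values from limma between 8.69e-06 and 0.0449, and in all 90 both heat libraries were below both controls. That separation was found in 9023 (49.6%) of the tested transcripts. The members were chosen on this contrast, so their counts add nothing to it. Without control replicate 1 or without control replicate 2 the number of members that passed was 76, without heat replicate 1 it was 89, and without heat replicate 2 it was 86.

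The members' median log2 change was -1.88, beside -0.20 for all tested transcripts and -1.37 for the 187 abundant rows. The members' median was thus -1.68 when that of all tested transcripts is subtracted. After rescaling by the median of ratios, the members' median was -1.64 and that of all tested transcripts 0.02, a difference of -1.66. This step divides all values of a library by 1 number. Both medians therefore move almost equally, and their difference is nearly fixed beforehand. The change of every member was below 0 under each scaling tried, except that of Luffa_aegyptiaca45264.t01 after quantile normalization. The rule had required a change of at most -1 on the FPKM values, so this was largely set by the choice of members. Of the members, 38 had a change at or under -2 and 12 at or under -3, while 27 had a change above -1.5.

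**Figure D3:**
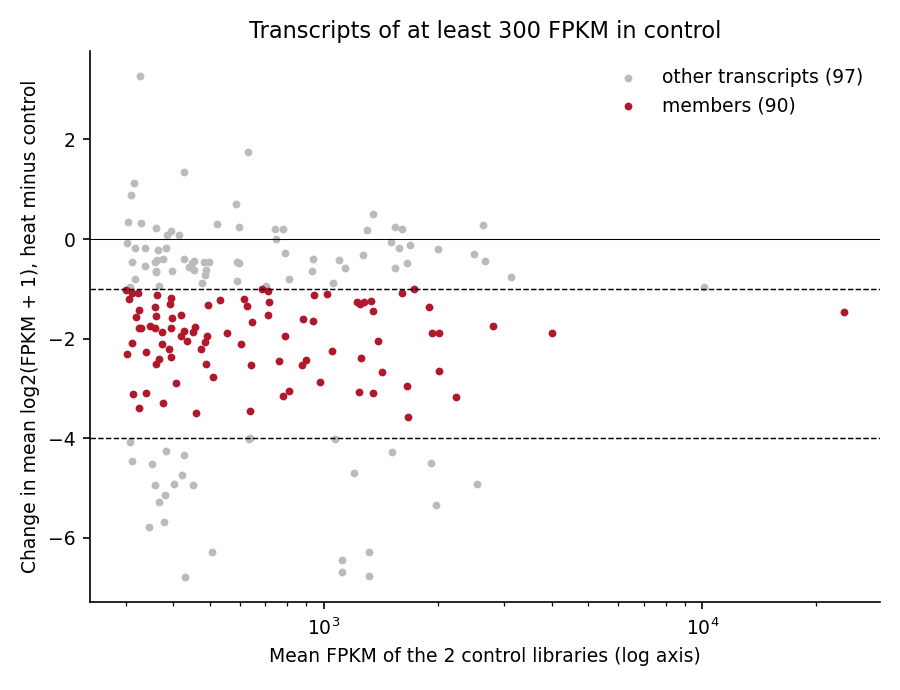
Change in mean log2(FPKM + 1), heat minus control, against mean control FPKM on a log axis for the 187 rows of at least 300 FPKM in control. The 90 members (red) fill the band between the dashed limits at -4 and -1 by definition, 27 rows lie under it and 70 above it, of which 21 were above 0.

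Differences between replicates were not used by the rule. Members tended to be higher in control replicate 2 than in control replicate 1, and higher in heat replicate 1 than in heat replicate 2. Of the 90 members, 60 were higher in control replicate 2 and 75 in heat replicate 1. The median difference, replicate 1 minus replicate 2, was -0.06 between the controls and 0.29 between the heat libraries on the log2(FPKM + 1) scale. It stayed between 0.16 and 0.36 in the heat libraries under the 3 other scalings, and lay between -0.10 and 0 in the controls. Abundant rows that were no members behaved similarly: 67 of 97 were higher in control replicate 2 and 86 in heat replicate 1, with medians of -0.07 and 0.33. Over all tested transcripts the medians were 0.01 and -0.02. What sets these differences was not tested.

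The 2 differences were related across members. A member that was higher in control replicate 2 tended to be higher in heat replicate 1, with a Pearson's r of -0.56 and a Spearman's rho of -0.52 between the differences over 90 members that share the same 4 libraries. Over the 97 abundant rows that were no members, Pearson's r was -0.22 and Spearman's rho -0.61; these rows include 2 that were listed at 0 in heat replicate 1. Over all tested transcripts r was -0.07 and rho -0.15. The member whose controls were furthest apart was Luffa_aegyptiaca03945.t01, chosen here after its values were seen. It had control values of 505 and 1250 FPKM and heat values of 202 and 91.7 FPKM. Its controls differed 2.47-fold and its heat libraries 2.199-fold, in opposite directions by replicate number. Without it, Pearson's r over the other 89 members was -0.51. The median fold between controls was 1.08 over all members, and the median fold between heat libraries 1.24.

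**Figure D4:**
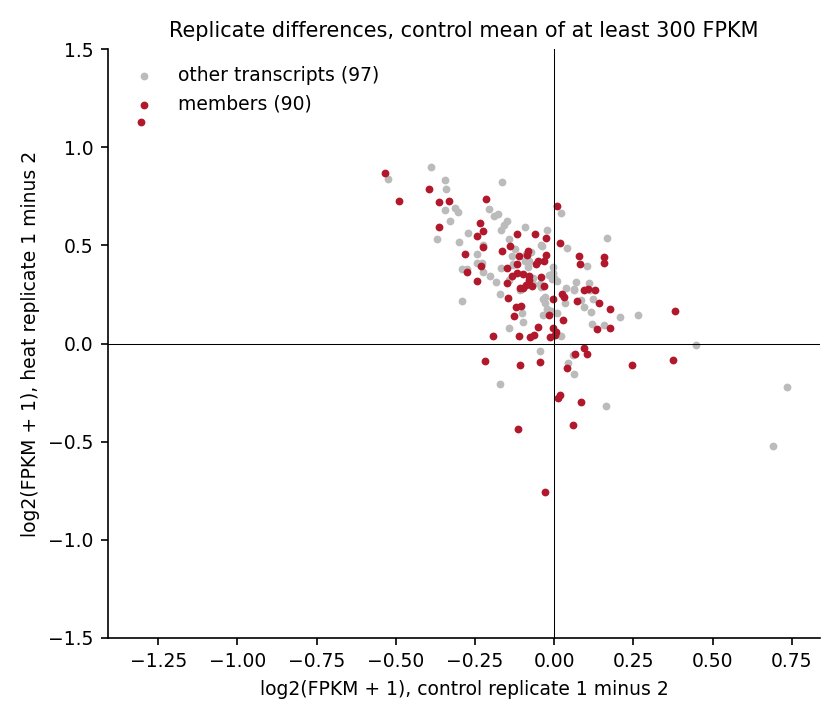
Difference in log2(FPKM + 1) between heat replicates 1 and 2 (vertical axis) against that between control replicates 1 and 2 (horizontal axis), for members (red) and the 97 other rows of at least 300 FPKM in control (grey). Most points lie to the upper left, higher in control replicate 2 and in heat replicate 1; 2 grey rows listed at 0 in heat replicate 1 lie outside the vertical axis.

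The ID numbers of the members were spread over most of the table, from 1533 to 46041 among numbers that run to 48614. Whether the numbers follow the order of the genome is not given in the sources used here. There were 17 members below number 10000, 22 from 10000, 25 from 20000, 15 from 30000 and 11 from 40000 on. Relative to the tested transcripts in the same stretches, this was between 0.364% and 0.704%. Within 10 numbers of another member lay 10 of the 90 members, as 5 pairs and no longer run. Within 5 numbers there were 8, and within 50 numbers 32.

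In 3 of these 5 pairs the log2 changes of both members differed by 0.18 to 0.28. Luffa_aegyptiaca27773.t01 and Luffa_aegyptiaca27774.t01 have consecutive numbers. The former measured 1004 and 946 FPKM in control, against 120 and 147 under heat, and the latter 771 and 786 in control, against 66.6 and 113. Both were higher in heat replicate 2 than in heat replicate 1, unlike most members, and their log2 changes were -2.87 and -3.15. The next number, Luffa_aegyptiaca27775.t01, was below the control limit at 246 and 189 FPKM, and reached 17.2 and 37.8 under heat, with a change of -3.03 and again the higher value in heat replicate 2. Luffa_aegyptiaca09750.t01 gave 379 and 434 FPKM for the controls, and 54.9 and 53.4 for the heat libraries. Luffa_aegyptiaca09754.t01 had control values of 1404 and 1078 FPKM and heat values of 155 and 138 FPKM. The changes of these last 2 were -2.88 and -3.07, although their control levels differed. Luffa_aegyptiaca45905.t01 measured 593 and 635 FPKM in control, against 300.1 and 235 under heat. Luffa_aegyptiaca45913.t01 gave 297 and 304 FPKM for the controls, and 171 and 127 for the heat libraries. Both were close to the upper limit of the change, at -1.21 and -1.02.

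The other pairs differed in how far they fell. Luffa_aegyptiaca14419.t01 had control values of 436 and 406 FPKM and heat values of 142 and 148 FPKM, a change of -1.53, while Luffa_aegyptiaca14414.t01 had a change of -3.40. Luffa_aegyptiaca45954.t01 measured 355 and 341 FPKM in control, against 88.7 and 119 under heat, a change of -1.75. Luffa_aegyptiaca45956.t01 measured 339 FPKM in both controls, and 39.1 and 38.0 in the heat libraries, a change of -3.10. The log2 changes within these pairs differed by 1.87 and 1.35.

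Rows directly beside a member were lower about as often as all tested transcripts. There were 177 rows that were no members and lay 1 number from a member, of which 105 were tested. Of these, 46 (43.8%) were lower and 29 (27.6%) higher under heat (limma), beside 42.5% and 30.9% of all tested transcripts. Their median log2 change was -0.19, beside -0.20. Their median control level was 12.4 FPKM, and 31 of the 177 were listed at 0 in every library. Per distance from 2 to 20 numbers, 44 to 64 of 176 to 180 rows were at 0 throughout. Of all 48619 rows, 27490 were above 0 in at least 1 library and 18186 were tested. Rows directly beside a member were thus more often detected than rows of the whole table. At distances of 2 to 20 numbers the share that was lower lay between 32.3% and 50.5%, with medians between -0.50 and 0.07.

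**Figure D5:**
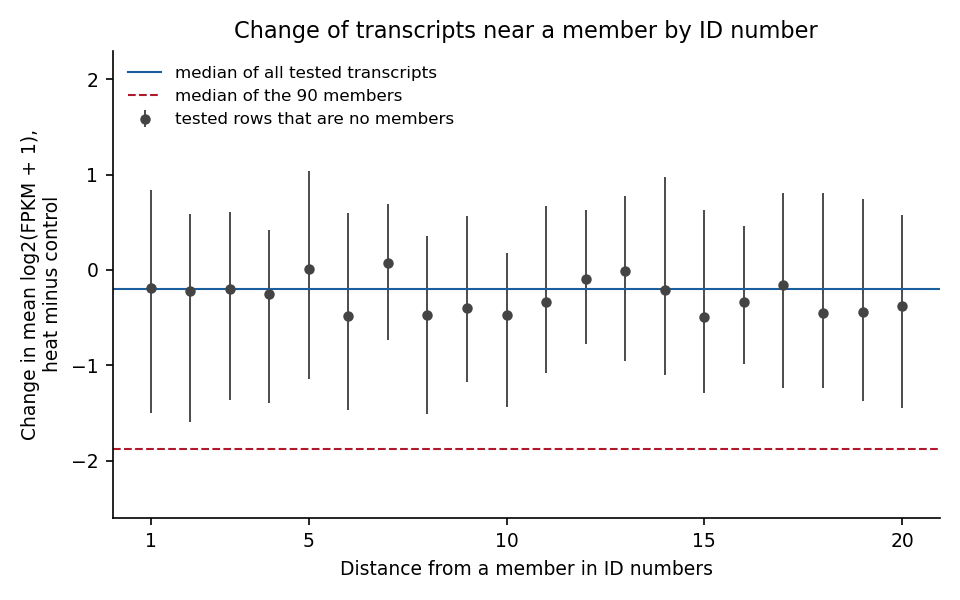
Median change in log2(FPKM + 1), heat minus control, of tested rows that are no members, by their distance from a member in ID numbers; bars run from the lower to the upper quartile. At each distance from 1 to 20 the bar crosses the median of all tested transcripts (-0.20, blue), and most points lie below that line. All points stay above the median of the members (-1.88, dashed red).

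Among the directly neighbouring rows, 9 had a control mean of at least 100 FPKM, a limit chosen after the values were seen. Of these, 6 were lower under heat, and the limma test left 3 uncalled, at adjusted p-values of 0.250, 0.507 and 0.882. Falls were common among abundant rows: 75.4% of the 187 rows of at least 300 FPKM in control were lower. The share for all rows of at least 100 FPKM was not counted, so nothing is read from the 6. The most abundant of the 9 was Luffa_aegyptiaca03946.t01, beside the member Luffa_aegyptiaca03945.t01. It gave 2364 and 1466 FPKM for the controls, and 67.3 and 97.2 for the heat libraries, a change of -4.51, which is past the limit of the rule. Its replicates differed in the opposite direction to those of its neighbour in both groups. The sum of both rows was 2870 and 2716 FPKM in the controls, a 1.06-fold difference, whereas the single rows differed 2.47-fold and 1.61-fold. Under heat the sum was 269 and 189 FPKM, a 1.42-fold difference. There the member differed 2.199-fold and the neighbour 1.44-fold, so the sum was about as far apart as the neighbour alone. How reads that fit more than 1 transcript were assigned is not given in the sources used here, and whether the rows share sequence was not tested.

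The neighbours that limma left uncalled were also of some size. Luffa_aegyptiaca15149.t01 gave 125 and 124 FPKM for the controls, and 115 and 108 for the heat libraries, so its groups did not overlap. Luffa_aegyptiaca16714.t01 had control values of 298 and 337 FPKM and heat values of 351 and 221 FPKM, so its groups overlapped, while the member Luffa_aegyptiaca16713.t01 went from 1526 and 1177 FPKM to 151 and 160. Luffa_aegyptiaca25926.t01 measured 153 and 149 FPKM in control, against 158 and 141 under heat, while its neighbour among the members, Luffa_aegyptiaca25927.t01, went from 425 and 596 FPKM to 94.5 and 56.6. Consecutive numbers could thus hold a transcript that fell and one whose groups overlapped.

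Lower in number than the 4 members 45905, 45913, 45954 and 45956 lay transcripts that rose by 8 or more on the log2 scale, numbered up to 45894. From number 45870 to 45956, an interval chosen after the values were seen, 51 transcripts were tested, of which 25 were lower and 18 higher under heat (limma). Over all tested transcripts 42.5% were lower and 30.9% higher. The interval starts at the first of these rises and ends at the last of the 4 members, so its content was set by the values. The fall of the 4 members was required by the rule. On the log2 scale, 9 of the 51 rose by 8 or more, numbered between 45870 and 45894. How often such a rise occurred over the whole table was not counted, so nothing is read from the 9. These 9 stood at 6.82 FPKM or less in each control library and between 306 and 6686 FPKM in the heat libraries. The members followed after them in number and fell, so both directions were found within a short interval of ID numbers.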

How the data were processed

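RNA-seq of 4 libraries, 2 control and 2 heat, was analysed from a table of FPKM values that the authors deposited, with 1 column per library and 0 columns of other samples. HISAT2 2.2.1, StringTie 2.0 and fastp 0.20.1 are listed in the submitters' processing notes. The genome build, annotation and settings were not given in the sources used here. FPKM values are not counts, so log2(FPKM + 1) was fitted with limma 3.58.1 in R 4.3.3, with the group as the only term and a mean-variance trend. Rows with a mean of at least 1 FPKM were tested (18186). P-values were two-sided and adjusted by Benjamini-Hochberg over all of them, with a threshold of 0.05. Separate plants are not mentioned in the labels, so p-values measure the spread between these libraries, which may be technical. The fit was tested on simulated data.

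The members, and the other choices described here, were made with earlier results of these data known. Named members were the 6 highest in control, 4 further ones highest under heat, the 4 lowest under heat, the 3 largest and 3 smallest falls, pairs close in ID number, the 2 lowest in control, and rows just outside each limit. The fifth pair, the rows beside a member and the members beside such rows were named after their values were seen. Alternatives covered the pseudocount, the filter, 3 scalings, the variance trend, a replicate block, each library left out, the control limit, the most abundant row and the ID distance. Read depth is unknown, so no counting interval is given. No reference sequence or gene name was used here.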

Additional observations from a re-analysis of the deposited data

How the results depend on the processing

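None of the 12 refits turned the direction of the 30 named members (that of Luffa_aegyptiaca45264.t01 was 0 after quantile normalization), and 9 of them lost their call in at least 1, in 29 cases in all. Luffa_aegyptiaca45264.t01 accounts for 10 of these; for the others the cause was not tested. Without control replicate 1, and also without control replicate 2, the named members Luffa_aegyptiaca37791.t01, Luffa_aegyptiaca26714.t01, Luffa_aegyptiaca31295.t01, Luffa_aegyptiaca19922.t01, Luffa_aegyptiaca25434.t01, Luffa_aegyptiaca14648.t01 and Luffa_aegyptiaca06406.t01 had adjusted p-values from limma between 0.0506 and 0.220. That of Luffa_aegyptiaca25434.t01 was 0.0979 without heat replicate 2, 0.0865 after median-of-ratios rescaling and 0.0781 with no filter, and that of Luffa_aegyptiaca19922.t01 was 0.0555 after rescaling. Luffa_aegyptiaca03945.t01 had an adjusted p of 0.0978 without heat replicate 2, against 0.00530. After rescaling by the median of ratios the ratio of the members' summed FPKM was 2.81 (against 3.35), the median residual 32.8% (against 27.5%) and the median change -1.64 (against -1.88). After quantile normalization the ratio was 2.77, and the shares were 16.2% in control and 5.84% under heat. The median fall was larger under that scaling, with a median residual of 24.0% and a median change of -2.06. Without the most abundant row the shares were 13.3% and 3.51%, because that row is a member. The rule found 182 rows on TPM values, where 300 is a lower limit relative to FPKM, 145 with a control minimum of 200 FPKM and 47 with 500, against 90. It found 70 rows after median-of-ratios rescaling, 67 of them members, and 107 after quantile normalization, 89 of them members. With a minimum mean of 5 FPKM, 18 neighbouring rows were higher, against 29, and 38 were lower, against 46. That filter left 12651 transcripts to test, against 18186, and how many neighbouring rows were among them is not given here. Within 50 ID numbers of each other lay 32 members, against 10.

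With 1 library left out at a time, the lone library of a group takes its spread from the other. The rule then found 81 to 99 rows and 76 to 89 members passed; the median change lay between -2.02 and -1.71, the median residual between 24.5% and 30.5%, the ratio between 2.98 and 3.82, and the heat share between 4.54% and 5.35%. With a replicate block, 13149 transcripts and 89 members passed, against 13352 and 90. Libraries with the same number did not deviate together (r = -0.07 over all tested transcripts), so the numbers were not taken to pair the libraries.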
